A study of Mus musculus with 20 samples.

Results

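The mouse Cyp2a genes encode cytochrome P450 enzymes of the endoplasmic reticulum, and 4 of them were followed here in male liver: Cyp2a4, Cyp2a5, Cyp2a12 and Cyp2a22. They were chosen by name from the 16115 genes of the count table, because Cyp2a4 lay higher in livers given oxymetholone and the other members are its closest relatives in the table. All 4 members were in the table and passed the filter on low counts. Since the values with oxymetholone chose Cyp2a4, every difference between livers with and without oxymetholone is given below as a description, with no test. Tests are given for genotype and for metformin, alone or added to oxymetholone, which did not enter the choice. The interaction of the drugs contains the oxymetholone difference and is given without a test of the members.

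Liver RNA was sequenced from male mice after 18 months of treatment in 5 groups. Wild-type untreated mice gave 4 libraries. The other groups carried the Fancd2 mutation, written d2-/- in the labels, and were untreated (3 libraries), given metformin (3 libraries), given oxymetholone (5 libraries) or given both drugs, called the combination here (3 libraries). Fancd2 is a protein of the Fanconi anaemia pathway of DNA crosslink repair. Oxymetholone is a synthetic androgenic steroid, and metformin is a drug used to lower blood glucose. The sources used here give neither drug doses nor the allele. There was no wild-type group with a drug, so each drug was seen in mutant liver only. The labels do not say whether the libraries came from separate animals, so p-values measure only the spread between these samples.

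Cytochrome P450 enzymes insert an oxygen atom into lipophilic compounds with electrons supplied by P450 reductase and cytochrome b5. The Cyp2a4 enzyme is known as the steroid 15-alpha-hydroxylase of testosterone and is female-biased in the liver of many mouse strains. The Cyp2a5 enzyme is known as the coumarin 7-hydroxylase, which also oxidises nicotine, and its gene is known to respond to liver injury and to many xenobiotics. Cyp2a12 is a hepatic steroid hydroxylase that also acts on bile acids. Cyp2a22 is a less studied relative.

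The members form 2 near-identical pairs, which limits how far reads can be assigned to 1 gene. The coding sequences of Cyp2a4 and Cyp2a5 differed at 23 of 1482 bases (98.4% identity), and those of Cyp2a12 and Cyp2a22 at 45 bases (97.0% identity). Across the pairs the identity was 74.97 to 76.3%. A stretch of 90 coding bases, from base 580 to base 669 counted from the first base of the start codon, is shown because it holds 5 of the 23 differing bases of Cyp2a4 and Cyp2a5 (in capitals).
Cyp2a4: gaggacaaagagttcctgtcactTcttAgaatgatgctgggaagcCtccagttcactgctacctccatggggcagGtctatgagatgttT
Cyp2a5: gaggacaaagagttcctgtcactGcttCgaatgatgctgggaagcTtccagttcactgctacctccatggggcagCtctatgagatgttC
The central one of these differences, C625T from Cyp2a4 to Cyp2a5, lies in codon 209. The residue there is known from mutagenesis to shift the enzyme between testosterone and coumarin as substrates. The longest identical coding run of these genes covered 216 bases, from base 742 to base 957, so a read within it carries no base that tells them apart.

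How much of each transcript is shared depends on the length of the read. At 50 bases, 38.0% of the windows of the Cyp2a4 transcript occurred unchanged in another Cyp2a gene, and at 150 bases 4.22% did. For Cyp2a5 these shares were 40.8% and 5.79%, for Cyp2a12 27.5% and 3.72%, and for Cyp2a22 25.7% and 3.46%. The pseudogene Cyp2a21-ps accounted for part of the sharing of Cyp2a4 and Cyp2a5 (11.3% and 17.9% of their 50-base windows). Neither Cyp2a4 nor Cyp2a5 shared any 50-base window with Cyp2a12 or Cyp2a22. The read length, the aligner and the treatment of reads with several matches were not given in the sources used here, so the values of Cyp2a4 against Cyp2a5, and of Cyp2a12 against Cyp2a22, are uncertain to that extent.

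**Figure D1:**
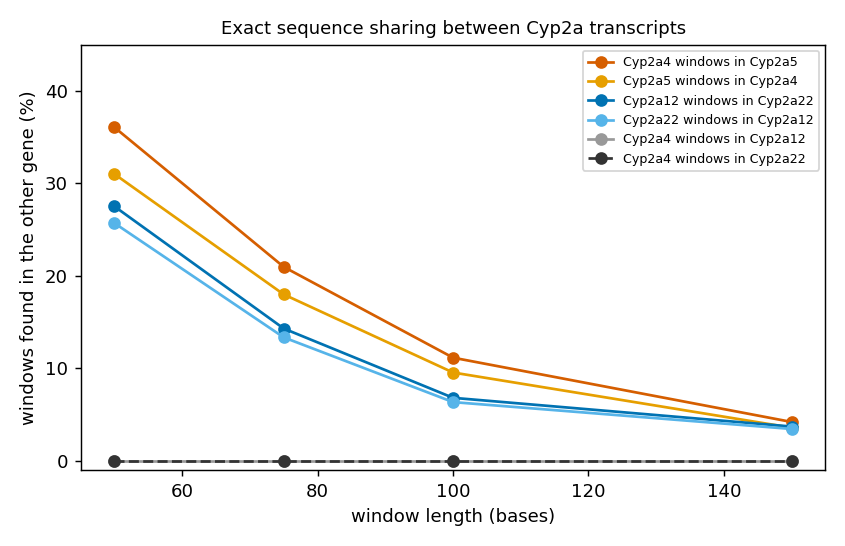
Percentage of all windows of a Cyp2a transcript (y axis) that occur unchanged in the transcript of another member, by window length in bases (x axis). Each line is 1 ordered pair of genes, and the pairs of Cyp2a4 with Cyp2a12 and Cyp2a22 lie at 0 at every length.

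The promoters repeat the pairing, and those of Cyp2a4 and Cyp2a5 are shown because these are the members that lay higher with oxymetholone. The 250 bases before each transcription start were taken from RefSeq (GRCm38.p6), for Cyp2a4 at chr7:26306942-26307191 and for Cyp2a5 at chr7:26835089-26835338, both on the plus strand. Capitals mark the bases in which they differ.
Cyp2a4: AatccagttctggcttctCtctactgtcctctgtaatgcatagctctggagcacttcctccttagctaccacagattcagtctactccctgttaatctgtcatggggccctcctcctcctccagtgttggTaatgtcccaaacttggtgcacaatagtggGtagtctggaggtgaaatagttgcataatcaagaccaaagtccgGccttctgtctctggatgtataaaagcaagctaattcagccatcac
Cyp2a5: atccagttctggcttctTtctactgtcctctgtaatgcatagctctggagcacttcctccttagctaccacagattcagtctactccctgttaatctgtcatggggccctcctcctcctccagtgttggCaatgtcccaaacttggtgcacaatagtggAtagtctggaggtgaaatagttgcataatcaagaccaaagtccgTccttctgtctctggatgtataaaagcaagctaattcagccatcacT
They differed at 4 bases and by an offset of 1 base at the ends (97.6% identity). The promoters of Cyp2a12 and Cyp2a22 were 82.8% identical to each other, and that of Cyp2a12 was 48.7% identical to that of Cyp2a4.

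Short motifs, chosen after the promoters had been seen, were searched on both strands of these 250 bases and of 32851 promoters of the same length. The TATA box letters TATAAA occurred in all 4 members and in 12.4% of all promoters. TTGCATAA, a form bound by proline- and acid-rich bZIP and C/EBP factors, occurred 70 bases before the start of Cyp2a4 and 71 before that of Cyp2a5, in neither Cyp2a12 nor Cyp2a22, and in 0.694% of all promoters. CAAAGTCC, part of a binding site of the nuclear receptor HNF4, occurred 55 and 56 bases before the starts of Cyp2a4 and Cyp2a5, in neither other member, and in 1.196% of all promoters. The letters AGAACA, a half-site of the androgen and glucocorticoid receptors, occurred in no member's window and in 16.1% of all promoters. TTATGTAA and TTACGTAA (0.819% and 0.113% of all promoters), TTCNNNGAA of STAT5 (7.02%) and TGACNNNGC of NRF2 (10.2%) were likewise in no member's window. A match of letters is a description of the sequence, and none of these data measure binding.

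Each library held 20.2 to 32.7 M counts over all genes, and 18 of the 20 labelled samples were used. Levels are given as CPM, counts scaled to a common library size after TMM normalization. All 10 hepatocyte markers were present in every group, with summed levels of 38782 to 91379 CPM whose ranges overlapped between all groups. The cholangiocyte sum ranged from 34.997 to 1466 CPM, with the highest value in untreated mutant replicate 2. The next highest were combination replicate 3 (670 CPM), metformin replicate 3 (659 CPM) and oxymetholone replicate 4 (423 CPM). Metformin replicate 3 and combination replicate 3 stood farthest from the rest in an earlier analysis of these data, and results that move without them are given both ways. In bulk liver, fewer cells of a type and less RNA per cell cannot be told apart.

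Cyp2a4 (ENSMUSG00000074254), the testosterone 15-alpha-hydroxylase gene, was lower in every liver without oxymetholone than in any liver with it, by a narrow margin at the boundary. In wild-type liver its CPM values were 7.64, 21.2, 5.02 and 3.62 in replicates 1 to 4. In untreated mutant liver they were 14.2, 20.8 and 33.2 in replicates 2 to 4. In metformin livers they were 49.3, 8.42 and 120.4 in replicates 1, 3 and 4. With oxymetholone the 5 livers held 281, 967, 257, 122 and 1492 CPM, and with the combination 164, 632 and 852 CPM. The group means were 9.37 ± 8.05 CPM (SD, n = 4) in wild type, 22.7 ± 9.63 (n = 3) in untreated mutants, 59.4 ± 56.7 (n = 3) with metformin, 549 ± 351 (n = 3) with the combination and 624 ± 586 (n = 5) with oxymetholone. In this order the neighbouring groups overlapped, except metformin and combination, where the lowest combination library (164 CPM) lay above the highest metformin library (120.4 CPM).

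Over all 18 libraries, the lowest Cyp2a4 value among the 8 with oxymetholone (122 CPM, replicate 4 of the oxymetholone group) was just above the highest among the 10 without (120.4 CPM, replicate 4 of the metformin group). The median was 457 CPM with and 17.5 CPM without the drug. Such a separation upward was seen for 1 of 4 members, Cyp2a4, and for 13 of 16115 genes (0.0807%). Because the choice of Cyp2a4 used these values, nothing is read from that share. Spread within the oxymetholone group was wide, with the highest library 12.2 times the lowest.

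**Figure D2:**
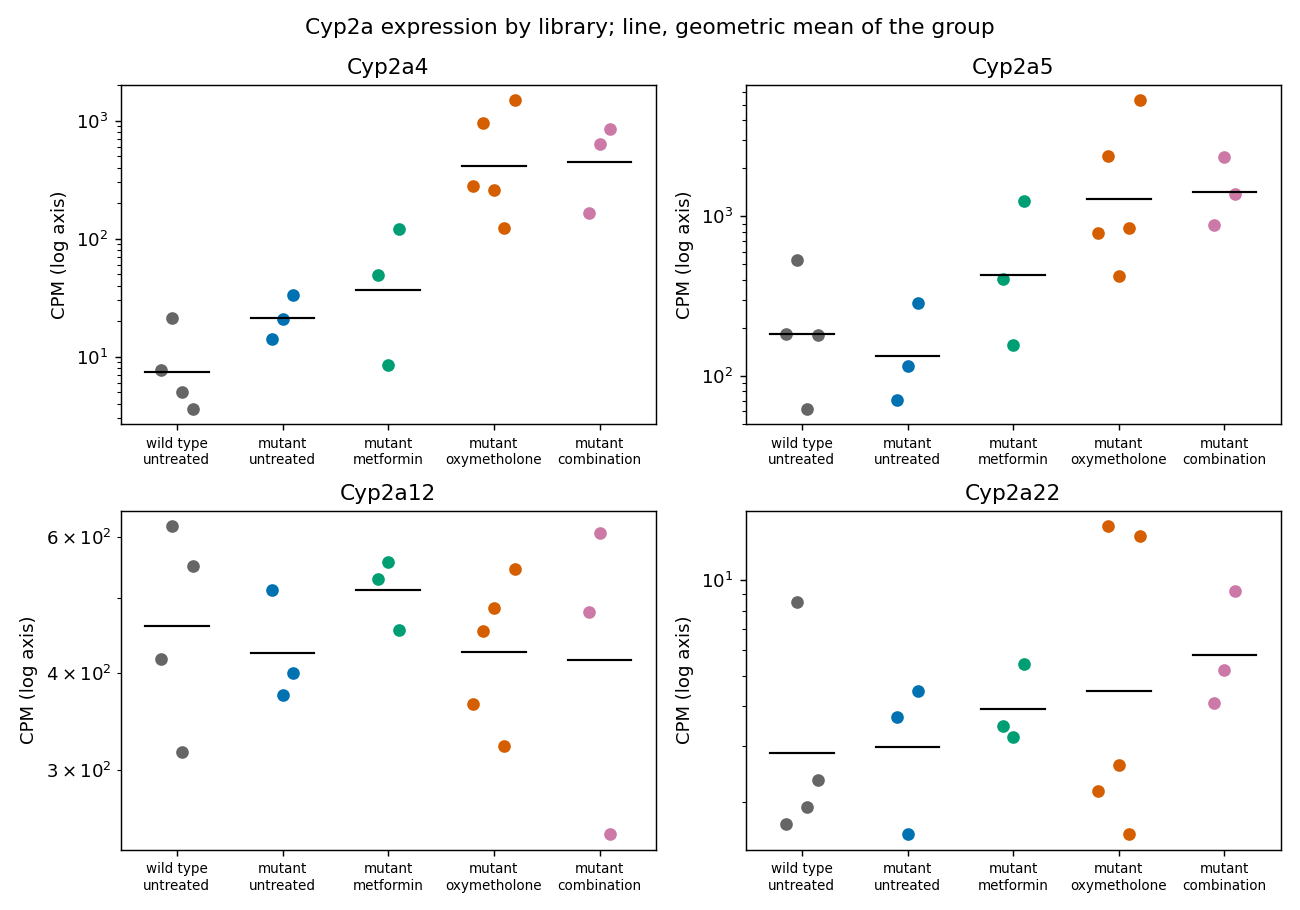
CPM of the 4 members (log axis, each panel with its own range) in each of 18 libraries, by group on the x axis, with a line at the geometric mean of the group. Cyp2a4 and Cyp2a5 lie higher in the oxymetholone and combination groups than in untreated mutants without overlap, and Cyp2a12 stays between 247 and 620 CPM.

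Cyp2a5 (ENSMUSG00000005547), the coumarin 7-hydroxylase gene, was already expressed without oxymetholone and also lay higher with it. Its CPM values were 183, 535, 62.4 and 181 in wild type, 70.3, 116 and 285 in untreated mutants, and 407, 156 and 1246 with metformin. With oxymetholone they were 789, 2379, 423, 851 and 5335 CPM, and with the combination 877, 2350 and 1372 CPM. Every oxymetholone and combination library was above every untreated mutant library, whereas metformin replicate 4, at 1246 CPM, lay above 3 of the 5 oxymetholone libraries. Ordered by mean, Cyp2a5 stood at 157 ± 113 CPM in untreated mutants (SD, n = 3), 240 ± 204 in wild type (n = 4), 603 ± 571 with metformin (n = 3), 1533 ± 750 with the combination (n = 3) and 1955 ± 2033 with oxymetholone (n = 5). Each neighbouring pair in this order overlapped.

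Cyp2a12 (ENSMUSG00000060407), the steroid and bile acid hydroxylase gene, overlapped between all groups. Its 18 values ran from 247 to 620 CPM. The means were 476 ± 135 CPM in wild type (SD, n = 4), 429 ± 73.2 in untreated mutants (n = 3), 514 ± 52.6 with metformin (n = 3), 434 ± 90.6 with oxymetholone (n = 5) and 445 ± 182 with the combination (n = 3). The lowest library was combination replicate 3, which also held 852 CPM of Cyp2a4.

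Cyp2a22 (ENSMUSG00000091867) was the least expressed member, at 1.58 to 14.8 CPM. Its values were 1.70, 8.51, 1.93 and 2.35 CPM in wild type, 3.69, 1.59 and 4.47 in untreated mutants, and 3.47, 3.20 and 5.45 with metformin. With oxymetholone they were 2.16, 14.8, 2.62, 1.58 and 13.7 CPM, and with the combination 4.11, 5.2 and 9.19 CPM. Libraries 2 and 5 of the oxymetholone group were high, and the other 3, at 1.58 to 2.62 CPM, lay below the highest of the libraries without the drug (8.51 CPM). These 2 libraries also held the highest Cyp2a4 and Cyp2a5 levels of their group.

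Per kilobase of transcript, a scale that corrects for transcript length, Cyp2a12 led in wild-type liver with a mean of 283 CPM per kilobase. The lengths are those of a single GENCODE M21 transcript per gene, and bases shared between members were not taken out, so comparison between genes is rough. Cyp2a5 followed at 119, Cyp2a4 at 5.39 and Cyp2a22 at 2.02 CPM per kilobase. In oxymetholone livers the means were 971 for Cyp2a5, 359 for Cyp2a4, 258 for Cyp2a12 and 3.88 CPM per kilobase for Cyp2a22. Cyp2a4 and Cyp2a12 overlapped there, with SDs of 337 and 53.9 CPM per kilobase over 5 libraries.

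The effect of oxymetholone in otherwise untreated mutants is described on the log2 scale of an edgeR fit to all 18 libraries. Oxymetholone livers were higher than untreated mutants by 4.78 ± 1.07 (log2 difference ± SE) for Cyp2a4, a fold of 27.4, and by 3.64 ± 0.99 for Cyp2a5, a fold of 12.5. The difference was 1.10 ± 0.74 for Cyp2a22 and 0.02 ± 0.29 for Cyp2a12. Without overlap in the upward direction were 2 of 4 members, Cyp2a4 and Cyp2a5, beside 301 of all genes (1.87%). Of all genes 7 (0.0434%) had an adjusted p under 0.05, and no call is read for the members. In the authors' deposited table, the log2 fold changes for the same comparison were 4.65 for Cyp2a4, 3.52 for Cyp2a5, -0.03 for Cyp2a12 and 0.64 for Cyp2a22.

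The combination livers, described in the same way, were 4.59 ± 1.09 higher than untreated mutants on the log2 scale for Cyp2a4 and 3.29 ± 1.01 higher for Cyp2a5. For Cyp2a12 and Cyp2a22 the differences were 0.05 ± 0.32 and 0.92 ± 0.81. This comparison and the preceding one share the untreated mutant libraries. Groups without overlap were found for 2 of 4 members, Cyp2a4 and Cyp2a5, and for 4.71% of all genes. Of all genes 0.0186% were called. The log2 fold changes in the authors' deposited table were 4.02 for Cyp2a4, 3.15 for Cyp2a5, 0.07 for Cyp2a12 and -0.02 for Cyp2a22.

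Against metformin alone, the combination livers were 3.21 ± 1.02 higher for Cyp2a4 and 1.35 ± 0.94 higher for Cyp2a5 (log2 difference ± SE). Cyp2a22 differed by 0.61 ± 0.80 and Cyp2a12 by -0.21 ± 0.33. Only Cyp2a4 among the 4 members had no overlap, beside 2.24% of all genes. No gene of the table was called (0%). Before adjustment 552 genes had a p under 0.05. The count of calls was 10 with DESeq2 and 3 with limma-voom. Without metformin replicate 3 and combination replicate 3 the Cyp2a4 difference was 2.19. The authors' deposited log2 fold changes were 2.80 for Cyp2a4, 1.35 for Cyp2a5, -0.05 for Cyp2a12 and 0.16 for Cyp2a22.

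**Figure D3:**
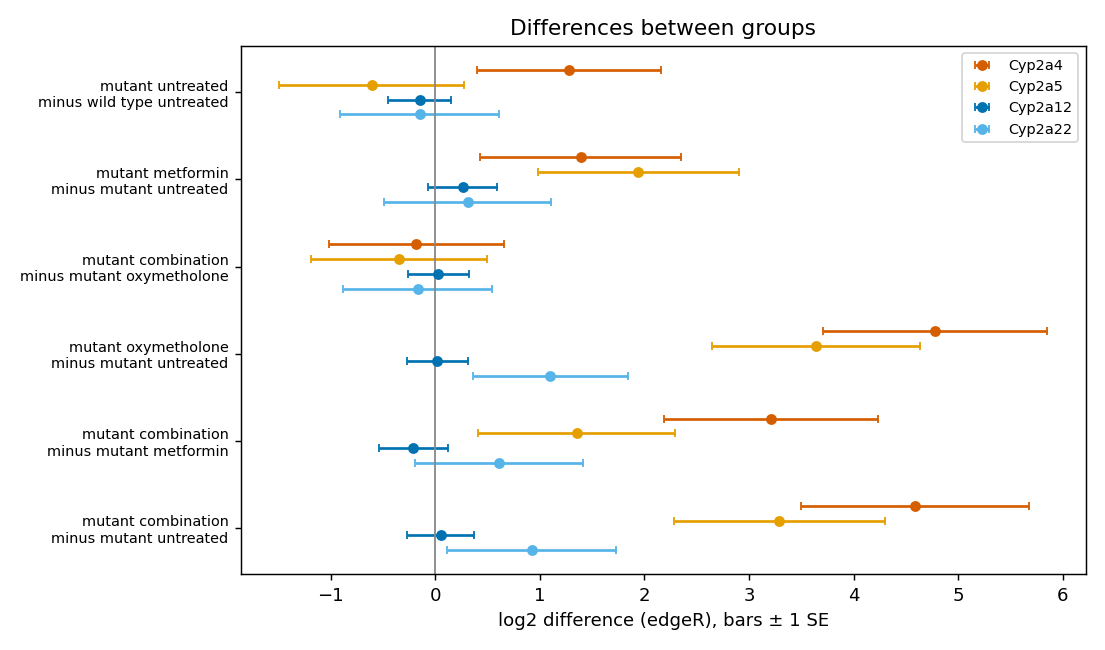
Log2 differences between groups (x axis, edgeR, bars ± 1 SE) for the 4 members in 6 comparisons. The 3 lower comparisons set livers with oxymetholone against livers without it and are a description, and in them Cyp2a4 lies farthest to the right, from 3.21 to 4.78.

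The genotype comparison asked whether the Fancd2 mutation itself changed the members in untreated liver. None of the 4 passed the edgeR quasi-likelihood test. Untreated mutants differed from wild type by 1.28 ± 0.88 (log2 difference ± SE) for Cyp2a4, with an adjusted p of 0.973 and a 95% interval from -0.59 to 3.14. The differences were -0.61 ± 0.88 for Cyp2a5, -0.15 ± 0.30 for Cyp2a12 and -0.15 ± 0.76 for Cyp2a22, with edgeR adjusted p-values of 0.974 to 0.991. No gene of the table was called (0%), 416 had a p under 0.05 before adjustment, and neither DESeq2 nor limma-voom called any. Without wild-type replicate 2 the differences were 2.07 for Cyp2a4, 0.14 for Cyp2a5 and 0.71 for Cyp2a22. That library was the highest wild-type library for Cyp2a4, Cyp2a5, Cyp2a12 and Cyp2a22 alike.

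Metformin alone was compared with untreated mutants to show whether that drug moved the members without oxymetholone. No member passed the edgeR test. The largest difference was that of Cyp2a5, 1.94 ± 0.96 on the log2 scale, with an unadjusted p of 0.0590, an adjusted p of 0.889 (edgeR) and a 95% interval from -0.08 to 3.97. Cyp2a4 differed by 1.39 ± 0.96 (edgeR adjusted p = 0.927). For Cyp2a12 and Cyp2a22 the values were 0.26 ± 0.33 and 0.31 ± 0.80 (edgeR adjusted p = 0.931 and 0.958). Both larger differences leaned on metformin replicate 4, the library with 120.4 CPM of Cyp2a4 and 1246 CPM of Cyp2a5. Without that library they were 0.34 for Cyp2a4 and 0.84 for Cyp2a5. That library also had the lowest hepatocyte marker sum of all 18, 38782 CPM, and the part of this in the result was not tested. No gene was called by edgeR (0%), while 914 had a p under 0.05 before adjustment. The calls numbered 11 with DESeq2 and 0 with limma-voom. The authors' deposited log2 fold changes were 1.22 for Cyp2a4, 1.80 for Cyp2a5, 0.11 for Cyp2a12 and -0.18 for Cyp2a22.

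Metformin added to oxymetholone was tested in the same way. The combination differed from oxymetholone alone by -0.18 ± 0.84 for Cyp2a4 (log2 difference ± SE), with a 95% interval from -1.97 to 1.60. For Cyp2a5 the difference was -0.35 ± 0.84, for Cyp2a12 0.03 ± 0.29 and for Cyp2a22 -0.17 ± 0.71, with edgeR adjusted p-values of 0.964 to 0.989. The interaction, whether metformin acted differently with and without oxymetholone, was -1.57 ± 1.28 for Cyp2a4 and -2.29 ± 1.27 for Cyp2a5 (log2 scale ± SE, a description). It was -0.23 ± 0.44 for Cyp2a12 and -0.48 ± 1.08 for Cyp2a22. Without metformin replicate 4 it was -0.52 for Cyp2a4 and -1.19 for Cyp2a5. Called by edgeR were 0% of genes in either comparison, with 461 and 483 whose p before adjustment was under 0.05. The calls of DESeq2 were 1 and 3, and those of limma-voom 0 and 0.

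Within a library, the share of Cyp2a4 in the summed counts of Cyp2a4 and Cyp2a5 does not depend on library scaling. In wild type the shares were 4.01, 3.81, 7.44 and 1.96%, and in untreated mutants 16.9, 15.2 and 10.4%. They were 10.8, 5.12 and 8.81% with metformin, 26.3, 28.9, 37.7, 12.6 and 21.9% with oxymetholone, and 15.8, 21.2 and 38.3% with the combination. Each share rests on at least 1881 counts of the pair. Group means were 4.31 ± 2.28% (SD, n = 4) in wild type, 14.2 ± 3.33% (n = 3) in untreated mutants, 8.25 ± 2.88% (n = 3) with metformin, 25.5 ± 9.26% (n = 5) with oxymetholone and 25.1 ± 11.8% (n = 3) with the combination. Cyp2a5 thus supplied most of the pair's counts in every library.

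The share was higher in untreated mutants than in wild type by 9.85 percentage points, with no overlap in 4 against 3 libraries. The exact two-sided permutation test gave p = 0.0571, the smallest value this design allows, and 0.171 after Benjamini-Hochberg adjustment over 3 comparisons. In this comparison the level of Cyp2a4 was nominally higher and that of Cyp2a5 nominally lower, and neither passed its own test. Metformin livers had a share 5.91 percentage points lower than untreated mutants, with exact permutation p = 0.2 (adjusted 0.3) in a design that cannot go below 0.1. The combination differed from oxymetholone by -0.365 percentage points, with exact permutation p = 0.929 (adjusted 0.929). As a description, oxymetholone livers lay 11.3 percentage points above untreated mutants, the combination 16.9 above metformin and 10.9 above untreated mutants. Without combination replicate 3 (38.3%) the last of these was 4.34.

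**Figure D4:**
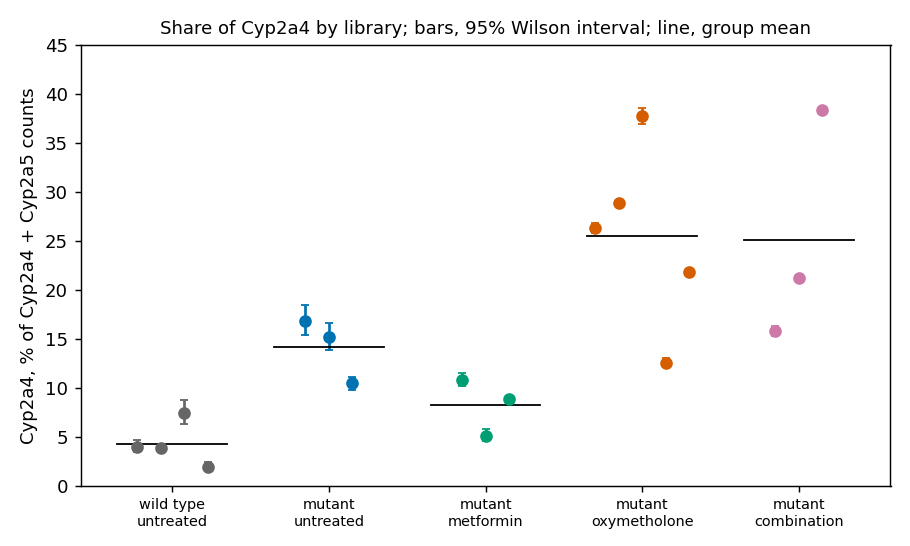
Cyp2a4 as a percentage of the summed Cyp2a4 and Cyp2a5 counts (y axis) in each library, by group, with 95% Wilson intervals that cover counting error only and a line at the group mean. Wild-type libraries lie at 1.96 to 7.44% and untreated mutants at 10.4 to 16.9%, and the oxymetholone libraries spread from 12.6 to 37.7%.

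The values also set a limit on how many Cyp2a5 reads could have been counted as Cyp2a4 at a constant rate. The smallest ratio of Cyp2a4 to Cyp2a5 counts was 2.003%, in wild-type replicate 4, and the largest 62.1%, in combination replicate 3. With this largest constant rate subtracted, the oxymetholone difference of Cyp2a4 was 4.90 on the log2 scale, against 4.78 as counted. The mean share of Cyp2a4 in the pair was higher with oxymetholone (25.5%) than in untreated mutants (14.2%). A subtraction of this kind therefore tends to raise the difference, and nothing is read from the rise. A rate that differed between libraries, or Cyp2a4 reads counted as Cyp2a5, was not tested. With the counts of both genes summed into 1 feature, the difference was 3.84, and the pair as a whole was higher in oxymetholone livers whichever gene the reads came from. For Cyp2a22 against Cyp2a12 the ratio ran from 0.408 to 3.72%. The oxymetholone difference of Cyp2a22 was 1.77 after the same subtraction, against 1.10 as counted. The Cyp2a22 counts left were 45, 1 and 78 in untreated mutants and 17, 348, 13, 7 and 424 with oxymetholone. The value of 1.77 thus rests on libraries near 0 counts and on oxymetholone replicates 2 and 5, and nothing is read from it.

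The levels of Cyp2a4 and Cyp2a5 were positively correlated among livers with and among livers without oxymetholone, short of the 0.05 threshold after adjustment. Each of these sets pools groups, and the permutations ran across them, so the p-values include differences between groups. With group means removed r was 0.822 with and 0.869 without the drug. Over the 8 libraries with oxymetholone, the correlation of their log2 CPM was r = 0.823 and rho = 0.786 (permutation p = 0.0133 and 0.0279, adjusted over 12 relations 0.0534 and 0.0904). Without the 2 libraries farthest from the median r was 0.782. Over the 10 libraries without the drug r was 0.745 and rho 0.697 (permutation p = 0.0134 and 0.0301, adjusted 0.0534 and 0.0904), and 0.669 without the 2 farthest. Reads that match both genes may enter both values, depending on how the counting treated them, which the sources used here do not give.

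Cyp2a22, which shares no 50-base window with Cyp2a4, followed Cyp2a4 within the 8 oxymetholone libraries with r = 0.906 and rho = 0.881 (permutation p = 0.00399 and 0.00724, adjusted 0.0479 and 0.0643). The r was 0.819 without the 2 farthest libraries. Over the 10 libraries without oxymetholone it was 0.570, with rho 0.636 (permutation p = 0.0861 and 0.0548, adjusted 0.148 and 0.110). Between Cyp2a4 and Cyp2a12, by contrast, r was 0.191 with and 0.0814 without the drug (permutation p = 0.651 and 0.822, adjusted 0.711 and 0.822). With group means removed r was 0.912 with and 0.585 without the drug for Cyp2a22, and 0.193 and -0.0177 for Cyp2a12. Whether the correlations of Cyp2a22 and Cyp2a12 with Cyp2a4 differ was not tested.

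**Figure D5:**
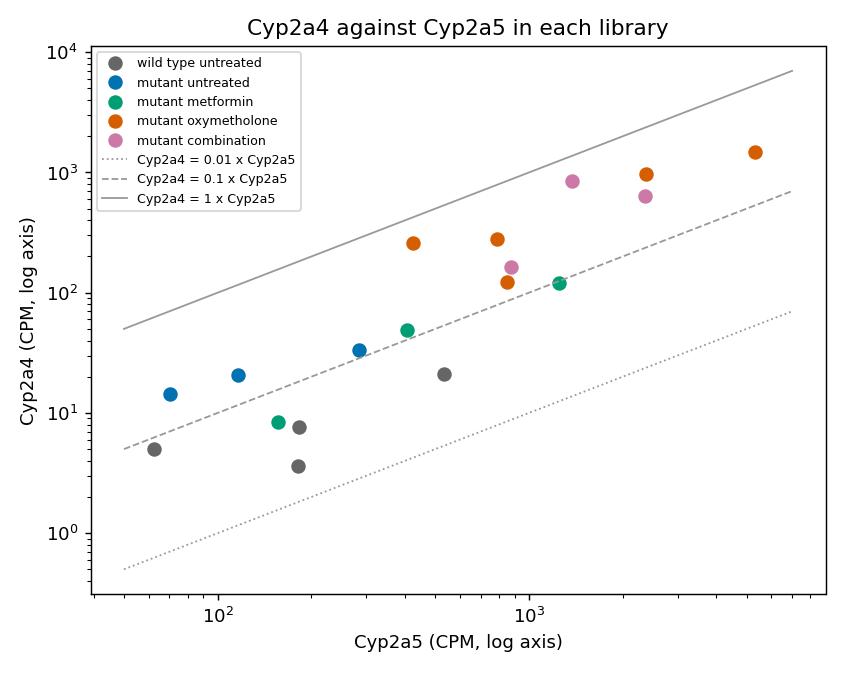
Cyp2a4 against Cyp2a5 in each of the 18 libraries (CPM, both axes logarithmic), coloured by group, with lines where Cyp2a4 equals 0.01, 0.1 and 1 times Cyp2a5. Wild-type libraries lie between the lines of 0.01 and 0.1, and the 8 libraries with oxymetholone lie above 120.4 CPM of Cyp2a4.

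Among 7184 other genes with a mean log2 CPM of at least 3, the 8 whose log2 CPM was most correlated with Cyp2a4 over 18 libraries were Gbp7 (r = 0.849), Strbp (0.843), Slc20a1 (0.841), Atp6v0e (0.837), Ralgps2 (0.816), Hexa (0.807), Ndel1 (0.802) and Nagk (0.799). With group means removed the correlations were between 0.451 for Ralgps2 and 0.758 for Gbp7. Gbp7 is an interferon-induced guanylate-binding protein, Slc20a1 a phosphate transporter, Atp6v0e a subunit of the proton pump, and Hexa a lysosomal hexosaminidase. Their own differences were small beside that of Cyp2a4. Slc20a1 was 1.97 higher in oxymetholone livers than in untreated mutants on the log2 scale, and the other 7 were 0.30 to 0.64 higher. Cyp2a5 itself correlated with Cyp2a4 at r = 0.902, above all of these genes, Cyp2a22 at 0.615 and Cyp2a12 at -0.102. The libraries share group and library scaling, and these correlations are given as a description.

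The members lie in a cluster of P450 genes on chromosome 7. In the order of the RefSeq annotation, Cyp2g1 precedes Cyp2a5, which is followed by Cyp2a22, Cyp2a21-ps, Cyp2a12 and Cyp2f2, while Cyp2a4 lies apart, after Cyp2b9. Of 9 other P450 genes of the cluster 4 were measured, and 0 were called in any comparison, beside 0 to 0.0434% of all genes. With so few genes called in the table, a count of 0 says little about this or any later list. Cyp2f2, a P450 best known from lung and also present in liver, held 217 ± 53.8 CPM (SD, n = 3) in untreated mutants and 302 ± 249 (n = 5) with oxymetholone. Cyp2b10, the main target gene of the receptor CAR, ranged from 0.695 to 482 CPM and differed by 0.78 ± 1.56 on the log2 scale between these groups, by 1.81 without untreated mutant replicate 2 and by 0.24 without untreated mutant replicate 3. Cyp2g1, known from olfactory epithelium, was low, with 0.110 to 0.383 CPM in untreated mutants, 0.445 to 5.67 in oxymetholone livers and 0.729 to 2.08 in combination livers. Of all genes, 1.87% and 4.71% lay above untreated mutants without overlap in these comparisons, and nothing is read from values this low. Cyp2s1 reached 36.8 CPM in a metformin library and at most 1.08 CPM in the oxymetholone and combination groups. Its metformin difference of 5.01 ± 1.47 had an edgeR adjusted p of 0.579, and without metformin replicate 3, the library with 36.8 CPM, it was -0.14. The cluster's median difference between oxymetholone and untreated mutants was 0.63, against 0.03 over all genes. It was 0.33 without oxymetholone replicate 3 and 1.18 without untreated mutant replicate 2. The lean was not particular to oxymetholone. For metformin against untreated mutants the cluster's median was 1.39, and 0.16 without metformin replicate 3. For untreated mutants against wild type it was -0.55, with 0 of 4 genes above 0.

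Gm42375 is an annotated RNA on the opposite strand, and its largest overlap with an exon of Cyp2a4 was 61 bases. Gm42375 was chosen after its values were seen. It held 0.203 to 2.60 CPM with oxymetholone (median 1.52, 8 libraries) and 0 to 0.637 CPM without (median 0.101, 10 libraries). Its highest count was 70, in oxymetholone replicate 2. The strand setting of the counting is not given in the sources used here, and reads of the overlap cannot be told apart between the genes.

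Of 33 other steroid-metabolising enzymes of liver 30 were measured and 0 passed the edgeR test in any comparison. Of all genes 0 to 0.0434% did. Their median log2 difference between oxymetholone and untreated mutants was 0.04, with 17 of 30 above 0, against 0.03 over all genes. That median ranged from -0.06 without untreated mutant replicate 2 to 0.22 without untreated mutant replicate 3. Cyp3a11, a broad steroid and drug hydroxylase, held 2159 ± 882 CPM (SD, n = 3) in untreated mutants and 3704 ± 3350 (n = 5) with oxymetholone. Akr1c6, a hydroxysteroid dehydrogenase, held 3470 ± 2213 and 2623 ± 1647 CPM. Sult2a8, a bile acid sulfotransferase, had means of 2398 CPM in untreated mutants against 1102 CPM in oxymetholone livers, a log2 difference of -1.12 ± 1.01.

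Because Cyp2a4 is known as a female-biased gene, lists of sex-biased liver genes were set beside it. Of 22 female-biased genes 19 were measured and 0 were called in any comparison, beside 0 to 0.0434% of all genes. Between oxymetholone and untreated mutants their median difference was 0.89, with 12 of 19 above 0, and with each library left out it ranged from 0.30 (oxymetholone replicate 5) to 1.17 (untreated mutant replicate 4). Cyp39a1, an oxysterol hydroxylase, was 1.51 ± 0.62 higher on the log2 scale, Trim24, a transcriptional coregulator, 1.41 ± 0.53 higher, and Cyp3a44 differed by -1.08 ± 1.06. Between combination and oxymetholone livers the median of this list was 2.11, with 18 of 19 above 0, while Cyp2a4 stood at -0.18. Without combination replicate 3 the median was -0.60, with 7 of 19 above 0. Cyp3a44 differed by 2.68 ± 1.06 there (edgeR adjusted p = 0.956), and by -0.60 without that library. Its combination values ran from 1.27 to 73.6 CPM.

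Of 21 male-biased genes 20 were measured and 0 were called by edgeR, beside 0 to 0.0434% of all genes. Their median difference between oxymetholone and untreated mutants was 0.35, with 14 of 20 above 0. With each library left out it ranged from -0.01 (untreated mutant replicate 2) to 0.83 (untreated mutant replicate 3). Metformin against untreated mutants gave a median of 0.65, with 16 of 20 above 0, and 0.18 without metformin replicate 3. Untreated mutants against wild type gave -0.49, with 5 of 20 above 0. Mup20, which encodes the male pheromone protein darcin, held 594 ± 206 CPM (SD, n = 3) in untreated mutants and 4275 ± 3559 (n = 5) with oxymetholone, a log2 difference of 2.85 ± 0.86. Gstp1, a glutathione transferase, was 0.93 ± 0.34 higher, and Nudt7, a peroxisomal hydrolase of coenzyme A, differed by -0.03 ± 0.69.

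Of 28 genes encoding regulators and redox partners of these enzymes, all were measured and 0 were called, beside 0 to 0.0434% of all genes. Their median difference between oxymetholone and untreated mutants was 0.14, with 18 of 28 above 0, against 0.03 over all genes. Without oxymetholone replicate 3 that median was -0.00. Cyb5a, the cytochrome b5 that donates electrons to P450 enzymes, differed by -0.24 ± 0.44 on the log2 scale between oxymetholone and untreated mutants. Ghr, the growth hormone receptor, differed by -0.24 ± 0.39, and Cebpa, a hepatocyte transcription factor, by 0.13 ± 0.40. Dbp, named here outside the rule because its protein is a bZIP factor known to drive the daily rhythm of Cyp2a4 and Cyp2a5, ranged from 0.604 to 13.2 CPM in untreated mutants and 1.65 to 30.1 in wild type. It held 21.8 to 33.3 CPM with metformin, 17.02 to 75.4 in oxymetholone livers and 1.03 to 65.6 in combination livers. Oxymetholone livers thus lay above untreated mutants without overlap, as did 1.87% of all genes, and combination livers overlapped with them. Dbp is 1 picked gene, and its part in the levels of the members was not tested. The time of day of collection is not given in the sources used here. Of 22 targets of CAR, PXR and NRF2 all were measured and 0 were called, beside 0 to 0.0434% of all genes. Their median difference between oxymetholone and untreated mutants was 0.71, with 17 of 22 above 0. Without oxymetholone replicate 5 that median was 0.41, and without untreated mutant replicate 3 it was 0.45. The median of these targets was 0.28 for metformin against untreated mutants, with 16 of 22 above 0. It was -0.45 for untreated mutants against wild type, with 4 of 22 above 0. Between oxymetholone and untreated mutants, Aldh1a1, a retinal dehydrogenase, differed by 0.29 ± 0.27 and Cyp2c29, a xenobiotic hydroxylase, by -1.28 ± 0.92.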

How the data were processed

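RNA of male liver was sequenced in 5 groups, with column extraction and a sequencing service's standard library, per the labels' protocols. The submitters' processing notes name GRCm39 as the build. The sources used here give no aligner, counter, annotation or strand setting. The authors deposited whole-number counts per gene without normalization, per the file headers. The deposited CPM signal equals CPM after TMM scaling computed here within 5e-15 (relative). Further deposited columns hold log2 residuals and log2 fold changes of the authors' own comparisons, with p-values and adjusted p-values, per the file headers. Of 20 labelled samples 18 were used. Not analysed here were replicate 1 of the untreated mutants and replicate 2 of the metformin group. Replicate numbers follow the order of the sample records and pair nothing.

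Counts were fitted over all 16115 genes with edgeR 4.0.16 in R 4.3.3 (TMM, filterByExpr, robust quasi-likelihood), with Benjamini-Hochberg adjustment and a threshold of 0.05. All genes passed filterByExpr. Log2 CPM used a prior count of 2. Counts were simulated around each gene's mean over all libraries, with the spread estimated for that gene. Changes were put into 200 genes with a mean CPM of at least 1. Between oxymetholone and untreated mutants, changes of 2, 4, 8 and 16-fold were recovered for 22%, 76%, 96% and 92% of these genes. Of 154 calls 11 were false. Between metformin and untreated mutants the shares were 14%, 68%, 92% and 88%, with 8 false among 139 calls. These shares are averages over the changed genes and do not give the recovery for the Cyp2a members. DESeq2 1.42.0 and limma-voom 3.58.1 were alternatives, with other normalizations and filters, summed Cyp2a4 and Cyp2a5 counts, and libraries left out. Subtraction of a constant leak and scaling to hepatocyte markers were added after seeing the data. Shares were compared with exact permutation tests (scipy 1.17.1), and correlations over 10 libraries with 100000 resamples. Transcript sequences were those of GENCODE M21 (GRCm38), and promoters those of RefSeq (GRCm38.p6). Neither is the build of the counts, so only the order of genes, the sequences and the coordinates of the 2 printed promoters were taken from them. Members and gene lists were chosen with earlier results of these data known. Named genes were the members, the 8 genes most correlated with Cyp2a4, the P450 genes of the cluster and, of each list, any called gene or else the 3 with the highest mean CPM.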

Additional observations from a re-analysis of the deposited data

Results flagged for a closer look

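Cyp2a22 in wild-type replicate 2 was set apart from the other wild-type libraries. It held 8.51 CPM, against 1.70 to 2.35 CPM in the other 3. The gap exceeded the critical value of Dixon's test for 4 samples. The test was run on 10 groups of values and set apart 1, and chance sets apart about 1 group in 20. The same library was the highest wild-type library for Cyp2a4 (21.2 CPM), Cyp2a5 (535 CPM) and Cyp2a12 (620 CPM). It had the lowest hepatocyte marker sum of the wild-type group, 49389 CPM, and the part of this in the values was not tested.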

How the results depend on the processing

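No paired analysis was possible because the labels carry no replicate numbers. No member passed the threshold in a tested comparison under any alternative run, and the lowest adjusted p was 0.119 (Cyp2a4, genotype, limma-voom). Of the values of members under alternatives, 462 were labelled the same, 20 reversed and 4 moved. For genotype, metformin and the interaction, the same meant an unchanged sign and side of the threshold, and reversed a changed sign. The adjusted p of the interaction entered these labels, and nothing is read from it for the members. For livers with against without oxymetholone, the same meant a shift smaller than the mean SD of the groups, and moved a larger one. A changed sign could there count as the same, as for Cyp2a12 with oxymetholone (-0.08 to 0.17). For the genotype, Cyp2a4 became -0.47 when its counts were summed with those of Cyp2a5. With each library left out in turn, Cyp2a5 ranged from -1.37 to 0.14, Cyp2a12 from -0.30 to 0.00 and Cyp2a22 from -0.45 to 0.71. For metformin, Cyp2a22 ranged from -0.01 to 0.61. For combination against oxymetholone, Cyp2a4 ranged from -0.65 to 0.44, Cyp2a5 from -0.80 to 0.47, Cyp2a12 from -0.26 to 0.32 and Cyp2a22 from -0.59 to 0.29, and Cyp2a22 was 0.10 with limma-voom. The Cyp2a12 interaction ranged from -0.52 to 0.06 and was 0.10 without metformin 3 and combination 3 together. For combination against metformin, Cyp2a22 was 0.08 with limma-voom, 0.03 without those 2 libraries and 1.16 with the leak subtracted. For combination against untreated mutants, the summed pair was 3.53. The cause was not tested. The share of Cyp2a4 for combination against oxymetholone ranged from -6.97 to 4.29 percentage points with each library left out, and for combination against metformin was 8.68 without those 2 libraries.

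The oxymetholone difference of Cyp2a4 ranged from 4.16 to 5.16 and that of Cyp2a5 from 2.82 to 4.39 with each library left out. Scaling to hepatocyte markers moved the median of all genes to 0.36 for metformin, 0.16 for oxymetholone and 0.24 for the combination against untreated mutants. Under that scaling the Cyp2a4 difference with oxymetholone was 5.07.

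Genes called with DESeq2 were 11 for metformin, 1 for combination against oxymetholone, 3 for the interaction, 77 for oxymetholone, 10 for combination against metformin and 43 for combination against untreated mutants. With limma-voom the last 3 were 14, 3 and 16. Without metformin 3 and combination 3 together, oxymetholone gave 15 and combination against untreated mutants 5, and the latter gave 0 with only the groups compared. With each library left out in turn, these counts ranged from 4 to 7 for oxymetholone, 0 to 2 for combination against metformin and 0 to 3 for combination against untreated mutants. The number of members of the gene lists called stayed the same in 705 settings and moved in 3. Counting error is largest for genes at low counts, such as Cyp2g1, Cyp2s1 and Gm42375.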

Other observations

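The authors also deposited log2 residuals per library, whose adjustment the sources used here do not name. For Cyp2a4 in the authors' deposited table they ran from 7.26 to 10.49 with oxymetholone and from 7.40 to 9.29 with the combination. They ran from 4.65 to 6.21 with metformin, 4.04 to 4.33 in untreated mutants and 2.56 to 4.71 in wild type. On these values the 8 livers with oxymetholone were above the 10 without. The residuals come from the same libraries that chose Cyp2a4, so nothing is read from that separation. The difference of Cyp2a4 between untreated mutants and wild type was 0.84 on the log2 scale in the authors' deposited table, with an adjusted p of 0.947 there.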
